A study of Homo sapiens with 8 samples.

Results

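The genes described here are 35 genes of homologous recombination, the Fanconi anaemia pathway and the DNA damage checkpoint. They were chosen by symbol from textbook roles, with earlier results of these data known. All 35 were among the 22808 gene symbols of the deposited table. RD18, an established human line of fusion-negative rhabdomyosarcoma, a muscle-lineage tumour without the PAX fusion, was either treated with the transfection reagent lipofectamine alone (vehicle, 4 libraries) or transfected with the microRNAs miR-449a and miR-340-5p together (treated, 4 libraries). Bulk polyadenylated RNA was sequenced 60 h later in both groups. All 8 libraries came from the same line, so no difference of genotype separates the groups. Vehicle cells got the reagent without any control RNA, and the effect of the microRNA pair and that of transfected RNA as such cannot be told apart. No label says that the replicates were separate cultures, and p-values measure the spread between these libraries, which may be technical.

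Homologous recombination repairs a broken chromosome from its sister copy: the ends are resected, BRCA2 and its partners build a protein filament on the single strand, and the filament invades the intact copy. The Fanconi pathway unhooks crosslinks between the strands, with a core complex that attaches ubiquitin to the FANCI and FANCD2 pair. The kinases ATM and ATR sense breaks and stalled forks and pass the signal to CHEK2 and CHEK1. Many of these genes are known to be transcribed mainly in late G1 and S phase.

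The transfected agents are shown first, since their seeds define the sites that are looked for in the transcripts below. The capitals mark the seed, bases 2 to 8 counted from the 5′ end, and the sequences are those of RefSeq (GRCh38.p14).
miR-449a, minus strand, chr5:55170586-55170607: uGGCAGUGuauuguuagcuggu
miR-340-5p, minus strand, chr5:180015361-180015382: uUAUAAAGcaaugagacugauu
The 2 seeds differ, and a transcript matches the miR-449a seed with the word CACTGCC and the other seed with CTTTATA.

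The libraries held 2567737 to 5569342 counts, and the 35 genes took 0.141% to 0.165% of the counts in the vehicle libraries and 0.0747% to 0.0771% in the treated libraries. Levels are given as CPM, counts scaled to library size and by TMM, which makes the typical gene equal between libraries. The muscle markers MYOD1 (204 ± 21.7 CPM, SD, n = 4), DES and CHRND were present in vehicle cells, whereas MYF6, another muscle marker, averaged 0.0561 CPM, the leukocyte marker PTPRC 1.49 CPM and the epithelial marker EPCAM 0.105 CPM. In treated cells MYOD1 fell 1.88-fold, CHRND 1.79-fold, DES 1.58-fold and MYOG 13.8-fold, the last resting on 6, 5, 1 and 1 treated counts. EPCAM, which was too low to be tested, averaged 1.38 CPM in treated cells and lay above the vehicle libraries in every treated library. The part of these markers in the results below was not tested. All 10 proliferation markers on a fixed list (MKI67, TOP2A and others) fell, and their summed level went from between 3069 and 3380 CPM in vehicle libraries to between 122 and 226 CPM in treated libraries. MKI67 itself fell from 762 ± 46.2 to 27.5 ± 9.67 CPM. The part of that fall in the results below was not tested, and in bulk RNA fewer cycling cells and less RNA per cell cannot be told apart.

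Of the 35 genes, all of which passed the filter on low counts, 30 were lower in treated cells, 2 were higher and 3 did not pass (edgeR's quasi-likelihood test, Benjamini-Hochberg adjusted p under 0.05 over all 12366 tested genes). Across all tested genes 34.0% were called lower and 33.4% higher by the same rule. With library size as the only scaling those shares were 27.9% and 39.5%, and 28 of the 35 genes were lower and 2 higher. The median log2 fold change, treated minus vehicle, was -1.26 over the 35 genes and 0.00 over all tested genes. A fall of at least 2-fold was called for 22 of the 35, against 13.1% of all tested genes. Of these 22, RAD54L, RAD54B, XRCC3, EXO1, FANCA and FANCG passed the filter on low counts only through their vehicle libraries. In 28 of the 35 every treated library lay below every vehicle library, against 29.7% of all tested genes. The falls were very unequal, and the 4-fold step used next was not counted over all tested genes. RAD54L, XRCC2, EXO1, FANCD2, BLM, POLQ, FANCA, FANCI, RAD51AP1, FANCG and BRIP1, 11 genes, fell at least 4-fold, another 11 fell 2-fold to 4-fold and 8 by less, while ATM, RAD50 and PALB2 did not pass and FANCF and ATR rose.

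**Figure D1:**
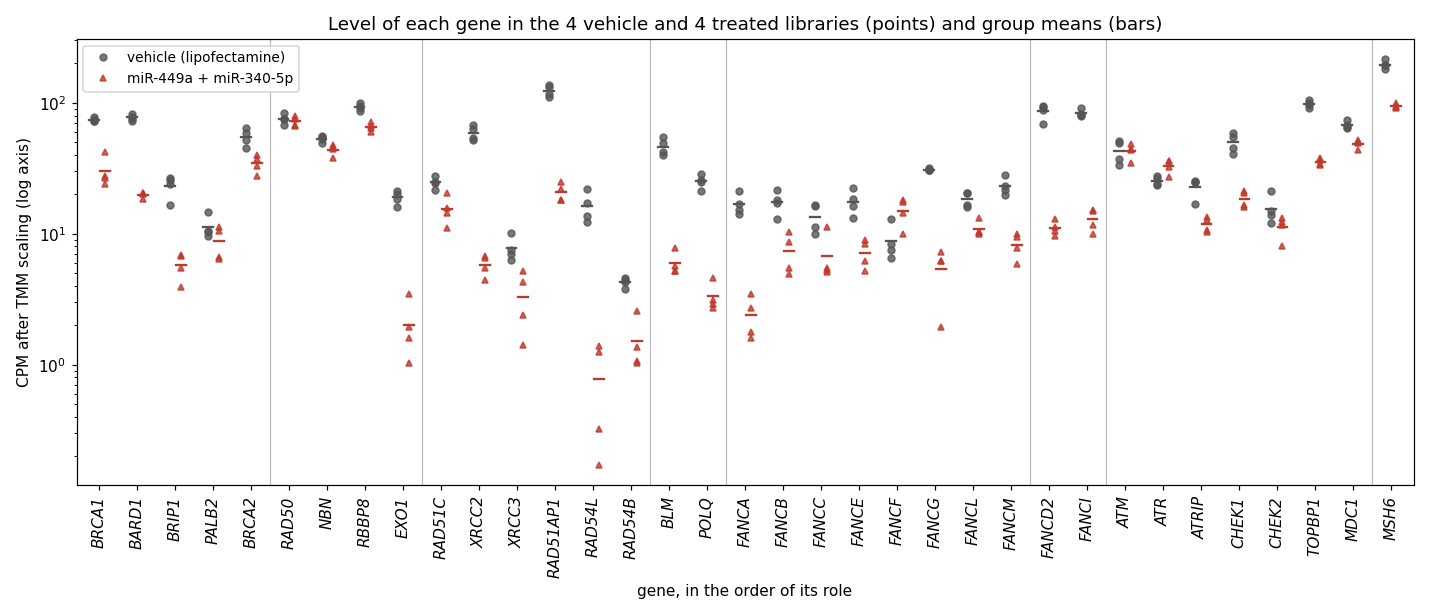
Level of the 35 genes in CPM (log axis) in the 4 vehicle libraries (grey circles) and the 4 treated libraries (red triangles), with group means as short bars and the roles separated by vertical lines. The libraries of RAD50, ATM and PALB2 overlap, those of RAD54L, XRCC2 and FANCD2 are separated, and the treated libraries of FANCF and ATR sit mostly above the vehicle libraries.

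Of the 5 genes of the BRCA1 and BRCA2 axis, which act in end resection and filament assembly, 4 fell and PALB2 did not pass. BRCA1, a ubiquitin ligase subunit that promotes resection and recombination (chromosome 17, 43044295 to 43170245, GRCh38), measured 72.4, 77.4, 72.5 and 75.1 CPM in the vehicle libraries and 42.1, 27.6, 24.1 and 26.7 CPM in the treated libraries. Treated replicate 1 was the highest of its group, and the groups did not overlap. The fold change was 2.4-fold lower (log2 fold change -1.26, SE 0.12, adjusted p = 5.62e-14). BARD1, the obligate partner of BRCA1 on chromosome 2 (214725646 to 214809711), measured 75.7, 72.8, 82.6 and 78.4 CPM in vehicle and 20.4, 20.3, 20.7 and 18.4 CPM in treated libraries. All treated libraries were close together and far below the vehicle libraries (3.87-fold lower, log2 fold change -1.95, SE 0.11, adjusted p = 9.32e-24). BRIP1, the helicase that binds BRCA1 and is also Fanconi gene J, fell from 23.2 ± 4.61 to 5.77 ± 1.38 CPM (4.204-fold). BRCA2, which helps build the filament on the single strand (chromosome 13, 32315474 to 32400266), measured 58.99, 45.3, 52.1 and 64.6 CPM in vehicle and 33.2, 27.6, 40.3 and 37.02 CPM in treated libraries. The BRCA2 groups did not overlap, but the gap was small (1.63-fold lower, log2 fold change -0.70, SE 0.12, adjusted p = 5.72e-07). PALB2, which links BRCA1 to BRCA2, measured 14.6, 10.4, 9.66 and 10.6 CPM and 10.5, 6.65, 11.4 and 6.44 CPM. Its groups overlapped and it did not pass (log2 fold change -0.35, SE 0.22, adjusted p = 0.159).

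The genes of strand exchange and its accessory factors all fell, 6 of 6, with a median log2 fold change of -2.06. RAD54L, the motor that helps strand invasion (chromosome 1, 46247688 to 46278473), had the largest fall of the 35 genes. It measured 17.1, 13.7, 12.3 and 21.9 CPM in vehicle and 1.24, 0.171, 1.38 and 0.322 CPM in treated libraries, where it rested on 7, 1, 4 and 1 counts (20.9-fold lower, log2 fold change -4.38, SE 0.35, adjusted p = 6.13e-17). The groups did not overlap, but the treated level rests on few counts. Exons of LRRC41 on the other strand cover 25.1% of its exon bases. RAD54B, its paralog, measured 4.602, 4.402, 3.82 and 4.27 CPM and 1.06, 1.36, 1.03 and 2.58 CPM (2.898-fold lower, log2 fold change -1.53, SE 0.39, adjusted p = 0.000479), and 59.1% of its exon bases lie in exons of FSBP on the same strand, so reads may be shared. XRCC2, a filament accessory factor on chromosome 7 (152644779 to 152676165), went from 63.6, 51.8, 53.7 and 68.1 CPM to 5.503, 4.43, 6.54 and 6.76 CPM (10.5-fold lower, log2 fold change -3.40, SE 0.16, adjusted p = 1.28e-27). Both groups were tight and far apart. RAD51AP1, which stimulates strand invasion, fell from 124 ± 12.4 to 20.7 ± 3.27 CPM (6.03-fold). XRCC3, the partner of RAD51C in a smaller accessory complex, fell from 7.72 ± 1.67 to 3.31 ± 1.701 CPM (2.37-fold), with 76.7% of its exon bases under exons of KLC1 on the other strand. RAD51C, which also belongs to a larger complex with XRCC2, fell least, from 24.7 ± 2.38 to 15.5 ± 3.96 CPM (1.54-fold).

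Of the 4 genes of break sensing and resection 3 fell and RAD50 did not pass. RAD50, the coiled-coil ATPase of the MRN complex that tethers broken ends (chromosome 5, 132556019 to 132646344), measured 83.2, 75.3, 75.9 and 67.6 CPM in vehicle and 78.8, 75.6, 67.8 and 66.95 CPM in treated libraries. The groups overlapped and it did not pass (log2 fold change -0.04, SE 0.09, adjusted p = 0.694). An overlapping annotated gene on the same strand, AC116366.3, covers 79.7% of its exon bases. NBN, the subunit of that complex that recruits ATM, measured 53.1, 55.9, 54.6 and 49.5 CPM and 47.4, 45.9, 38.2 and 44.1 CPM, a small fall without overlap (1.201-fold, log2 fold change -0.27, SE 0.10, adjusted p = 0.0202). The NBN call did not hold with DESeq2 (adjusted p = 0.0683), with upper-quartile scaling (0.0602), with library size alone (0.29), without a filter (0.0512) or without treated replicate 3 (0.0745). RBBP8, which encodes the resection factor CtIP, fell from 93.2 ± 5.38 to 65.4 ± 4.48 CPM (1.43-fold). EXO1, the nuclease of long-range resection and mismatch repair on chromosome 1 (241847967 to 241895148), measured 21.3, 20.2, 15.9 and 18.3 CPM in vehicle and 1.598, 1.02, 3.44 and 1.93 CPM in treated libraries. Every treated library was far below every vehicle library (10.3-fold lower, log2 fold change -3.36, SE 0.27, adjusted p = 4.63e-17). BLM, the helicase that dissolves recombination intermediates, fell from 46.4 ± 6.81 to 5.94 ± 1.27 CPM (7.62-fold), and POLQ, the polymerase of end joining through microhomology, fell from 25.1 ± 2.94 to 3.33 ± 0.867 CPM (7.25-fold).

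**Figure D2:**
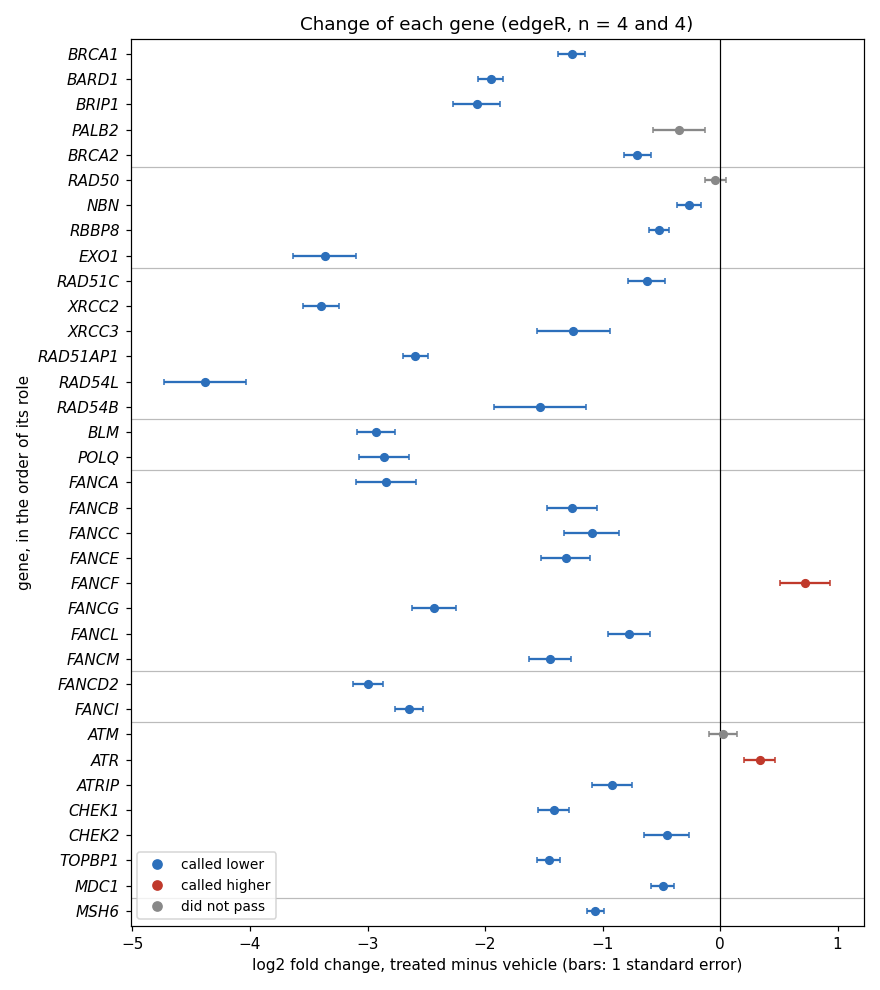
Log2 fold change of the 35 genes, treated minus vehicle, with 1 standard error as bars and colours for the call (4 libraries per group, edgeR). Of the 35 points, 30 are called lower, reaching -4.39 for RAD54L, and FANCF and ATR are the 2 called higher.

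In the Fanconi pathway both genes of the substrate pair fell, and so did 7 of the 8 core complex genes. FANCD2, which is ubiquitinated at crosslinks (chromosome 3, 10026414 to 10101930), measured 88.7, 69.1, 93.7 and 94.2 CPM in vehicle and 10.5, 9.55, 13.1 and 11.3 CPM in treated libraries. Its partner FANCI, on chromosome 15 (89243949 to 89317261), measured 81.2, 82.8, 79.5 and 92.2 CPM and 15.1, 14.8, 11.7 and 9.98 CPM. Neither gene's groups overlapped (7.98-fold lower, log2 fold change -2.996, SE 0.13, adjusted p = 2.86e-29, for FANCD2, and 6.26-fold lower, log2 fold change -2.65, SE 0.12, adjusted p = 5.44e-28, for FANCI). In the core FANCF alone rose, and the 8 genes had a median log2 fold change of -1.29. FANCA, the subunit that binds FANCG, fell from 16.9 ± 3.02 to 2.39 ± 0.859 CPM (7.17-fold), and FANCG itself from 30.9 ± 0.521 to 5.39 ± 2.36 CPM (5.41-fold). Those were the largest estimated falls in the core, and 23.6% of the FANCA exon bases lie under exons of ZNF276 on the other strand. FANCB fell 2.39-fold and FANCL, the ubiquitin ligase subunit, 1.71-fold, the latter with 19.7% of its exon bases under AC007250.1 and VRK2 on the other strand. FANCC fell 2.13-fold with overlapping groups, and FANCE, which joins the core to FANCD2, 2.49-fold. FANCM, the translocase that brings the core to chromatin, fell from 23.2 ± 3.49 to 8.27 ± 1.85 CPM (2.73-fold).

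FANCF, an adaptor that holds the core subunits together, was the exception. It is a gene without introns on chromosome 11 (22622890 to 22625841), and 11.3% of its exon bases overlap GAS2 on the other strand. Its libraries measured 8.37, 6.47, 13.03 and 7.54 CPM in vehicle and 9.94, 18.1, 14.5 and 17.4 CPM in treated cells. Vehicle replicate 3 was above treated replicate 1, and the other libraries were separated by group. FANCF rose 1.65-fold (log2 fold change 0.72, SE 0.21, adjusted p = 0.00276).

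Of the 7 checkpoint genes 5 fell, ATR rose and ATM did not pass. ATM, the kinase of double-strand breaks (chromosome 11, 108222484 to 108369102), measured 51.5, 37.5, 49.4 and 33.7 CPM in vehicle and 48.6, 44.4, 34.4 and 43.8 CPM in treated libraries, with overlapping groups (log2 fold change 0.03, SE 0.12, adjusted p = 0.849). ATR, the kinase of stalled forks (chromosome 3, 142449235 to 142578826), measured 23.4, 27.7, 26.7 and 23.9 CPM and 27.3, 32.2, 35.8 and 35.7 CPM. Vehicle replicate 2 exceeded treated replicate 1 by a little, and the other libraries did not cross. AC109992.1 on the other strand overlaps 16.4% of its exon bases. ATR rose 1.26-fold (log2 fold change 0.34, SE 0.13, adjusted p = 0.02), a call that missed the threshold without vehicle replicate 1 (adjusted p = 0.0518) or 4 (0.0547) or treated replicate 3 (0.052) or 4 (0.0533). ATRIP, which brings ATR to single-stranded DNA, fell from 22.9 ± 4.08 to 11.8 ± 1.56 CPM (1.89-fold), with 27.9% of its exon bases shared with TREX1 on the same strand. TOPBP1, the activator of ATR, measured 99.99, 91.1, 96.3 and 104 CPM in vehicle and 36.8, 34.3, 33.4 and 37.98 CPM in treated libraries, with a wide gap between groups (2.75-fold lower, log2 fold change -1.46, SE 0.10, adjusted p = 9.43e-21). CHEK1, the kinase that ATR activates, measured 55.2, 45.6, 58.4 and 40.7 CPM and 16.7, 21.1, 20.3 and 16.1 CPM (2.67-fold lower, log2 fold change -1.42, SE 0.13, adjusted p = 2.09e-14). CHEK2, the kinase that ATM activates, measured 12.1, 13.98, 15.1 and 21.1 CPM and 11.7, 13.1, 12.4 and 8.05 CPM. Its groups overlapped and its fall was small (1.37-fold, log2 fold change -0.46, SE 0.19, adjusted p = 0.0304). The CHEK2 call was lost with DESeq2 (adjusted p = 0.117), with upper-quartile scaling (0.0546), with library size alone (0.135), without a filter (0.0512), with the replicate number as a block (0.0516) and without vehicle replicate 4 (0.26) or treated replicate 1 (0.0525) or 4 (0.117). MDC1, the scaffold that reads phosphorylated histone H2AX, fell from 67.9 ± 4.61 to 48.7 ± 3.702 CPM (1.403-fold).

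MSH6, a gene of mismatch recognition, measured 180.3, 194, 216 and 195 CPM in vehicle and 91.2, 94.7, 99.5 and 93.7 CPM in treated libraries, without overlap (2.08-fold lower, log2 fold change -1.06, SE 0.07, adjusted p = 6.19e-20). FBXO11 on the other strand overlaps 16.2% of its exon bases.

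Per kilobase of annotated exon (GENCODE 29), the order of the genes changed between groups. In vehicle cells RAD51AP1 had the highest level at 48.5 ± 4.85 CPM per kilobase (SD, n = 4), followed by RBBP8 at 18.3 ± 1.06 and MSH6 at 17.9 ± 1.33, which did not differ beyond their spread. The lowest were RAD54B at 0.804 ± 0.063, XRCC3 at 1.03 ± 0.222 and FANCC at 1.06 ± 0.26. In treated cells RBBP8 was highest at 12.8 ± 0.88, and MSH6 at 8.62 ± 0.315 and RAD51AP1 at 8.08 ± 1.28 came next with overlapping spreads. RAD54L moved from rank 18 to rank 35 and was lowest at 0.242 ± 0.193, within the spread of FANCA at 0.245 ± 0.088 and RAD54B at 0.284 ± 0.137, while FANCF moved from rank 25 to rank 7.

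Ratios of 2 genes within a library do not depend on scaling, and 14 pairs of partners or paralogs were compared by an exact two-sided permutation test over the 8 libraries. With 4 libraries per group the smallest p is 0.0286, and after Benjamini-Hochberg adjustment over the 14 pairs no pair passed 0.05, while 7 reached an unadjusted p of 0.0286 (adjusted p = 0.0571 for each). In these 7 the libraries did not overlap, which is the only way to reach that p, so it adds nothing to it. How often other pairs of genes separate in this way was not counted. The mean log2 ratio of ATR to ATRIP was 0.16 ± 0.24 in vehicle and 1.46 ± 0.34 in treated libraries (SD, n = 4), a shift of 1.30. That of TOPBP1 to MDC1 went from 0.53 ± 0.08 to -0.45 ± 0.17, and that of BRCA1 to BARD1 from -0.06 ± 0.11 to 0.56 ± 0.35. The ratio of RAD51C to RAD51AP1 shifted by 1.88, from -2.32 ± 0.10 to -0.44 ± 0.49. XRCC2 to XRCC3 shifted by -2.01 and RAD54L to RAD54B by -2.97, the last resting on at most 8 counts per gene and treated library. FANCM to FANCD2 shifted by 1.46. FANCI to FANCD2, partners in one complex, had a log2 ratio of -0.03 ± 0.21 in vehicle and 0.21 ± 0.43 in treated libraries, a difference within the spread (exact permutation p = 0.343, adjusted 0.369). RAD50 to NBN (0.50 ± 0.10 and 0.72 ± 0.09) and CHEK1 to CHEK2 (1.69 ± 0.53 and 0.72 ± 0.20) each gave an exact permutation p of 0.0571 (adjusted 0.0889).

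**Figure D3:**
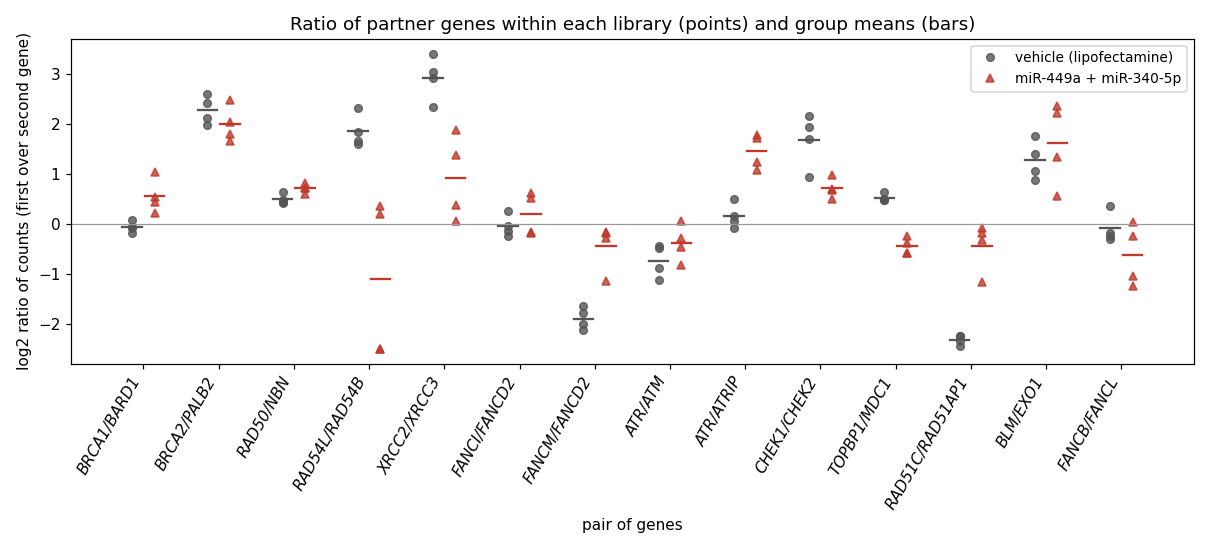
Log2 ratio of the counts of 2 partner genes in each library (pseudocount 0.5), vehicle in grey circles and treated in red triangles, with group means as short bars. The groups do not overlap for ATR to ATRIP (means 0.16 and 1.46) or TOPBP1 to MDC1 (0.53 and -0.45) and overlap for FANCI to FANCD2.

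The other genes of these pathways were taken from lists of textbook members, also chosen with earlier results of these data known. Of 42 tested other recombination genes 30 fell and 5 rose (median -0.85). These are 71.4% and 11.9%, beside 34.0% and 33.4% of all tested genes. ATAD5, which unloads the sliding clamp, fell 4.298-fold, PARPBP, an inhibitor of recombination, 4.26-fold and DNA2, a resection nuclease, 9.82-fold. MRE11A, the third subunit of the complex with RAD50 and NBN, was chosen after its values were seen and fell from 42.5 ± 3.37 to 25.6 ± 2.27 CPM (1.66-fold).

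Of 20 tested Fanconi partners and crosslink repair genes 12 fell and 5 rose (median -0.53). The shares were 60% and 25%, beside 34.0% and 33.4% of all tested genes. UBE2T, the conjugating enzyme for FANCD2, fell from 72.9 ± 3.87 to 15.2 ± 2.097 CPM, and USP1, which removes that ubiquitin, from 289 ± 12.4 to 57.5 ± 6.21 CPM. UHRF1, a reader of hemimethylated DNA, fell 5.66-fold and STRA13, a centromere and Fanconi-associated histone-fold gene, 2.46-fold. Of 33 other checkpoint genes 17 fell and 6 rose (median -0.28), or 51.5% and 18.2%, beside the same shares of all tested genes. CLSPN, the adaptor through which ATR activates CHEK1, fell from 278 ± 9.45 to 18.8 ± 5.41 CPM (14.2-fold), the licensing genes GMNN and CDT1 11.3-fold and 9.54-fold, and the phosphatase gene CDC25A 10.8-fold. TP53BP1, which restrains resection, was higher in every treated library than in any vehicle library, from 113 ± 10.2 to 234 ± 17.7 CPM (2.05-fold, log2 fold change 1.04, SE 0.07, adjusted p = 1.05e-19).

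Of 11 tested genes of mismatch repair and its clamp loader 8 fell and none rose (median -1.2), among them PCNA 6.07-fold, RFC4 5.16-fold and RFC5 5.55-fold. The share that fell was 72.7%, beside 34.0% of all tested genes. End joining held 17 tested genes, of which 7 fell and 5 rose (median -0.12), shares of 41.2% and 29.4% beside 34.0% and 33.4% of all tested genes. PRKDC, the end-joining kinase DNA-PKcs, fell 1.38-fold, the Ku genes XRCC6 and XRCC5 3.395-fold and 1.41-fold, PARP1 4.18-fold and LIG1 2.197-fold. Excision repair, with 33 tested genes, had 10 lower and 13 higher (median -0.07), or 30.3% and 39.4%, also near the shares over all tested genes. FEN1 fell 5.05-fold, UNG 2.95-fold and NEIL3 12.7-fold, while POLB, the polymerase of base excision repair, rose 2.31-fold. NEIL3 rested on 4, 6, 1 and 2 counts in the treated libraries. The lists were described by counts and not tested against each other.

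**Figure D4:**
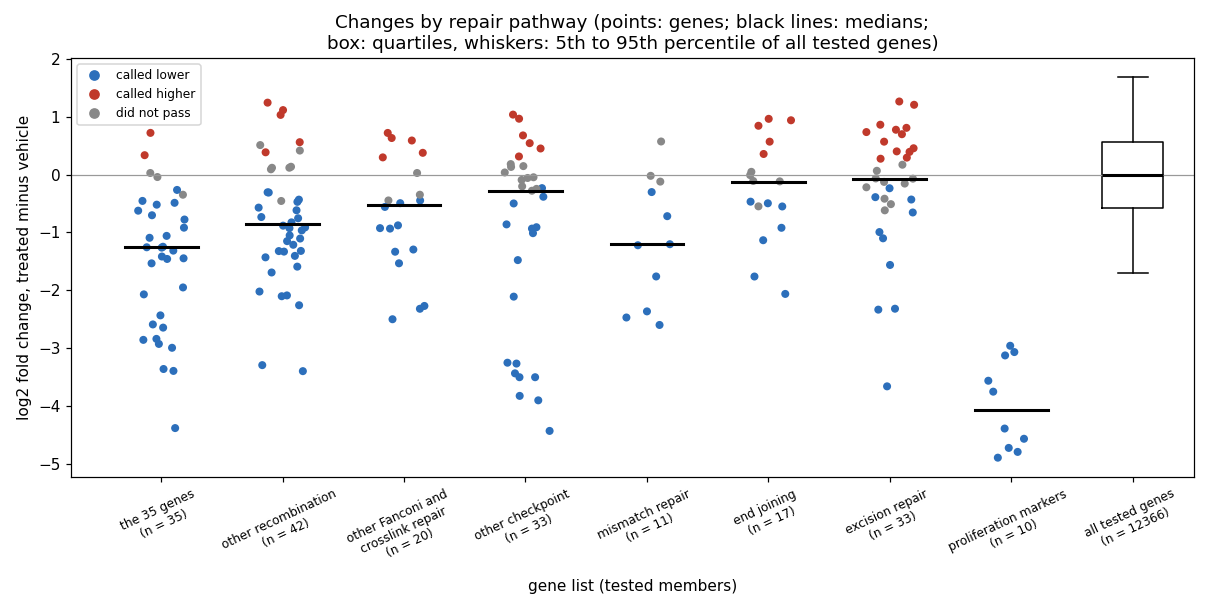
Log2 fold change, treated minus vehicle, of the tested genes of each list (points, coloured by call; black lines are medians) beside all 12366 tested genes (box with quartiles, whiskers at the 5th and 95th percentiles). The 35 genes have a median of -1.26, end joining and excision repair have medians of -0.12 and -0.07, and the 10 proliferation markers lie between -4.90 and -2.96.

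The seed words of the transfected microRNAs were looked for in the 3′ UTR of the principal transcript (GENCODE 29, longest 3′ UTR among principal coding transcripts). The miR-449a word was in 4 of the 35 genes (11.4%), against 16.1% of 10399 tested genes whose 3′ UTR reached 50 bases. The miR-340-5p word was in 6 of the 35 (17.1%), against 18.1% of the 10399. The median log2 fold change was -1.88 in the 4 genes with the miR-449a word and -1.51 in the 6 with the miR-340-5p word, against -0.18 and 0.02 in all tested genes with these words. It was -1.06 in the 9 genes with either word (FANCA holds both) and -1.29 in the 26 with neither, against -0.05 and 0.06 in all tested genes. Most of the 35 genes, among them RAD54L, FANCD2 and POLQ, thus hold neither 7-base word in that 3′ UTR. The sites below are shown because they lie in the genes with large falls (XRCC2, FANCA, EXO1, BARD1) and in 2 genes that did not pass (ATM and RAD50). Each is written as DNA, 5′ to 3′ on the strand of the transcript, with the 7-base word in capitals (GRCh38).
XRCC2 for miR-449a, minus strand, chr7:152646849-152646874: gttcgttgcagCACTGCCcatcagtg
FANCA for miR-449a, minus strand, chr16:89738243-89738268: gtgctcatcctCACTGCCgtcctcag
ATM for miR-449a, plus strand, chr11:108366837-108366862: catttaattccCACTGCCtgcctttg
FANCA for miR-340-5p, minus strand, chr16:89737617-89737642: tctttaaactgCTTTATAcactgtca
EXO1 for miR-340-5p, plus strand, chr1:241889731-241889756: ttgtatattaaCTTTATAattgggtt
BARD1 for miR-340-5p, minus strand, chr2:214725700-214725725: ttcatgtatttCTTTATAagtcaacc
RAD50 for miR-340-5p, plus strand, chr5:132642844-132642869: tctgcttttaaCTTTATAaatccagt
The ATM and XRCC2 words are the same 7 bases, and ATM measured 43.0 ± 8.75 and 42.8 ± 5.99 CPM and XRCC2 59.3 ± 7.82 and 5.81 ± 1.07 CPM in vehicle and treated libraries. The RAD50 (the first of its 2) and EXO1 words for miR-340-5p, each followed by an A, stand in a gene that did not pass and in one that fell 10.3-fold. A match is a description of the letters and was not tested as a site of action.

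Promoter windows of 300 bases (250 before and 50 after the RefSeq start, GRCh38.p14) were read for the 32 of 35 genes found in its promoter table. Words of the E2F type (on either strand the word TTCCCGC or the word TTCGCGC or the word TTGCCGC or the word TTGGCGC), which the E2F factors of S phase are known to bind, were in 19 of the 32 windows (59.4%), against 21.4% of 9275 tested genes and 13.1% of all 27305 windows. Words of the CHR type (TTTGAA or TTCGAA), known from G2 genes, were in 5 of 32 (15.6%, against 11.1% of tested genes), and CCAAT in 15 of 32 (46.9%, against 37.5%). The median log2 fold change was -2.07 for the 19 genes with an E2F-type word and -0.62 for the 13 without, against -0.11 and 0.06 for all tested genes with a window. The 13 without are BRCA1, BRCA2, PALB2, RAD51C, RAD50, RBBP8, FANCB, FANCM, ATM, ATR, ATRIP, CHEK1 and CHEK2. Of these, BRCA1, FANCB, FANCM and CHEK1 fell 2-fold to 4-fold. None of the 13 fell 4-fold, and 10 of the 19 did. RAD54L, EXO1, FANCA and FANCG, among those 10, passed the filter on low counts only through their vehicle libraries. Falls of 4-fold were not counted over all tested genes with or without the word, and a part of the word in the falls was not tested. FANCI, which fell 6.26-fold, NBN and RAD54B had no window and are in neither group. FANCF, which rose, holds the word as well. Only 1 start per gene was read, and the BRCA1 window (43170278 to 43170577) lies wholly outside its GENCODE span. BRCA1 is counted among the 13 on that window alone. Other starts of these genes were not read. Of the 24 words 18 began within 50 bases of the start.

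The windows of RAD54L, FANCD2, XRCC2 and EXO1, which fell most, and of RAD50, which did not pass, are printed to show where these words lie or are absent. Capitals mark the E2F-type, CHR-type and CCAAT words, read 5′ to 3′ on the strand of the gene.
RAD54L, plus strand, chr1:46247438-46247737: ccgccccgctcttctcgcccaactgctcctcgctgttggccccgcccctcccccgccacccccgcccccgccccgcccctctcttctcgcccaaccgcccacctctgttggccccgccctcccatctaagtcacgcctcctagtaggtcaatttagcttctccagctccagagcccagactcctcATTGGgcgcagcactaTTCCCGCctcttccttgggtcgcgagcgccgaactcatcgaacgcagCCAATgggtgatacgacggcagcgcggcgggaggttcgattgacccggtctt
FANCD2, plus strand, chr3:10026187-10026486: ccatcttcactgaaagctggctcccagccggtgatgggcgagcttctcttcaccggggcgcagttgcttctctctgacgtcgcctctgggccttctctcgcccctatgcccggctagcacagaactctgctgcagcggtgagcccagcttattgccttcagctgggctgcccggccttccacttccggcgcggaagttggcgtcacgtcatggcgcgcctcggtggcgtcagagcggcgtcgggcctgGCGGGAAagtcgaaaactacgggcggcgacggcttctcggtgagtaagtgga
XRCC2, minus strand, chr7:152676092-152676391: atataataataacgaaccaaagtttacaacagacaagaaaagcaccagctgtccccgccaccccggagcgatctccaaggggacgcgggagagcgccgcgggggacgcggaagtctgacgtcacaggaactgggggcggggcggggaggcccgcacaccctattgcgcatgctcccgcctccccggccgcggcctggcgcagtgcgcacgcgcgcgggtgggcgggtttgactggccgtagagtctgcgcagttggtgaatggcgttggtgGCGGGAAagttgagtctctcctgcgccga
EXO1, plus strand, chr1:241847954-241848253: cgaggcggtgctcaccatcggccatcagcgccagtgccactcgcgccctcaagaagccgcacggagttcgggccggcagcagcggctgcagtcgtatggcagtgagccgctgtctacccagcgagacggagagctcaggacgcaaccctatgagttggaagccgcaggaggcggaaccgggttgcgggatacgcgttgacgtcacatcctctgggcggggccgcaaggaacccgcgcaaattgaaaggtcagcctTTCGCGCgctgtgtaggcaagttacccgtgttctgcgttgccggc
RAD50, plus strand, chr5:132556727-132557026: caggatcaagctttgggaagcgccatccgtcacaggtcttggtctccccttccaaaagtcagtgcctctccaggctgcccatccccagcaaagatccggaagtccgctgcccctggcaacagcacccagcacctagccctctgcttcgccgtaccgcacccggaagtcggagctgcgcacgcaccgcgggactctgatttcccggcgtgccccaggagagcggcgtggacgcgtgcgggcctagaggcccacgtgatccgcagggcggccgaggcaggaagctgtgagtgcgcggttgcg
RAD54L has its E2F-type word at -49 between 2 CCAAT words at -65 and -2. FANCD2 has it at -2, XRCC2 at 22 and EXO1 at 6, counted from the start with no position 0, and RAD50 has none of the words in its window. The share of genes with a word was not tested, and no match says only that these letters are not in the window.

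**Figure D5:**
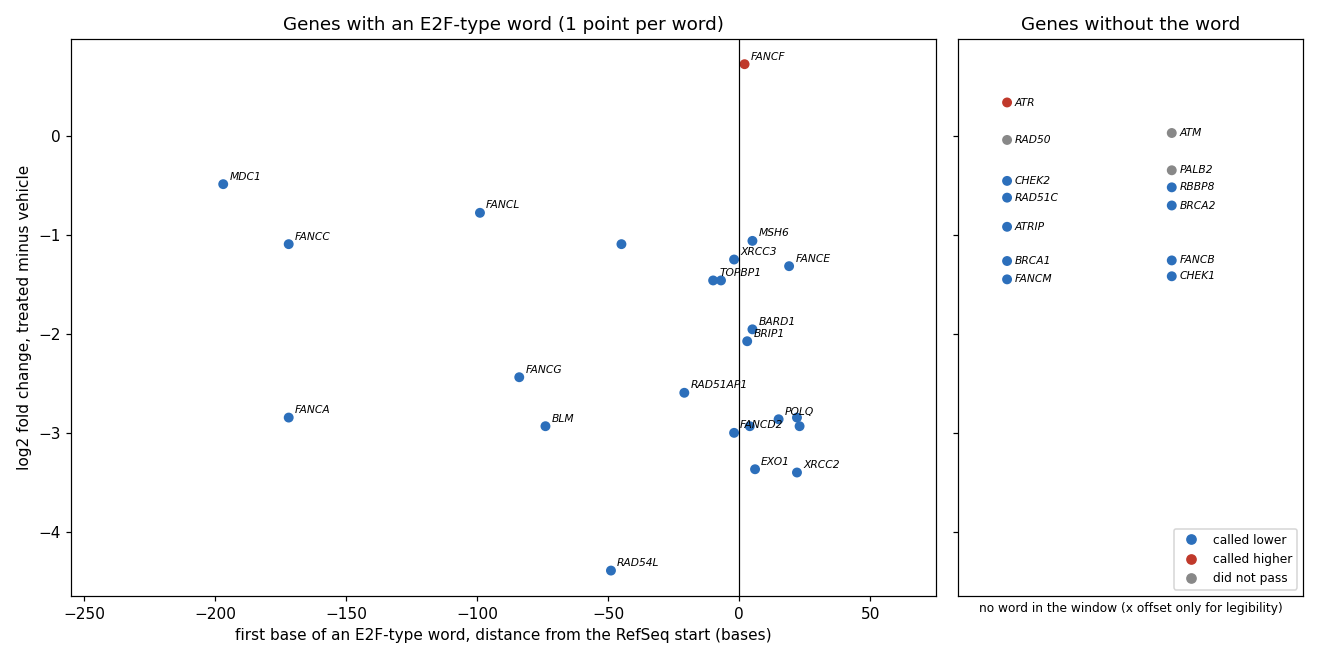
Log2 fold change of each gene against the distance in bases of its E2F-type words from the RefSeq start (left, 1 point per word, each gene named at its first word) and the 13 genes with no such word in the window read (right). Words lie between -197 and 23, and the genes without a word lie above -1.5 on the vertical axis.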

How the data were processed

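The deposited values are read counts, whole numbers per gene symbol in 1 column per library, and columns were matched to samples by library code. Per the submitters' processing notes, whose roles are not stated, the tools were DESeq2, HTSeq 0.5.3p3, TopHat2 2.0.13 and SAMtools 0.1.19.24, with the build GRCh38. Which gene annotation and strand setting were used for counting is not stated, so genes that overlap may share reads. No row lacked a gene name. Replicate libraries differed beyond sampling noise (chi-square per gene 2.21 to 5.89).

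filterByExpr (minimum count 10, minimum total 15) left 12366 genes. These were fitted in edgeR 4.0.16 (R 4.3.3) after TMM scaling with glmQLFit (robust), and glmQLFTest compared the groups without covariates. Benjamini-Hochberg adjustment ran over all 12366 genes. SE is the absolute log2 fold change divided by the square root of F. The fitting code was tested on simulated data. Alternatives were DESeq2 1.42.0, limma-voom (limma 3.58.1), other scalings, filters and thresholds, a replicate block and leaving out each library.

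The members and lists were chosen with earlier results of these data known. Named are all members, up to 4 called genes per list with the smallest adjusted p and at least 1 CPM, and UBE2T, USP1, CLSPN, TP53BP1, PRKDC and MKI67 whatever their values. Results for some genes under this rule are not reported here. All 35 members matched GENCODE 29 by symbol, as did 11399 of the 12366 tested genes.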

Additional observations from a re-analysis of the deposited data

Results flagged for a closer look

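Among 154 groups of 4 libraries (63 named genes and 14 ratios, each in 2 groups), 8 held a library standing apart from the other 3 by Dixon's criterion, where chance alone flags about 1 in 20 groups. ATRIP in vehicle replicate 4 measured 16.8 CPM, against 24.7 to 25.4 CPM in the other vehicle libraries. FANCC in treated replicate 3 measured 11.4 CPM, against 5.12 to 5.47 CPM, and that library makes its groups overlap. FANCL in treated replicate 4 measured 13.2 CPM, against 9.98 to 10.3 CPM, and BARD1 in the same library 18.3 CPM, against 20.3 to 20.7 CPM. UHRF1 measured 19.4 CPM in treated replicate 2, against 14 to 14.8 CPM. CDC25A measured 12.4 CPM in treated replicate 3, against 5.15 to 6.12 CPM. The log2 ratio of FANCM to FANCD2 was -1.14 in treated replicate 3, against -0.28 to -0.15 in the other treated libraries. The log2 ratio of TOPBP1 to MDC1 was 0.64 in vehicle replicate 1, against 0.48 to 0.51. Leaving out any of these libraries changed no direction or call of the 6 genes, and the 2 ratios were not tested with a library left out.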

How the results depend on the processing

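Of the 35 genes, 30 kept their direction and call under all 17 alternative fits. NBN, CHEK2 and ATR each lost the call with the same direction in some of them. RAD50 and ATM, which passed in none, changed sign: the log2 fold change of RAD50 was 0.01 with upper-quartile scaling and 0.10 with library size alone, and that of ATM ran from -0.07 to 0.11 when 1 library was left out. The count of lower genes was between 28 and 30 in those fits. It was 28 with an adjusted p under 0.01 and 26 with at least a 1.5-fold change. Over all tested genes 29.3% were lower at the 0.01 threshold and 24.0% with the 1.5-fold change. DESeq2 called 17.2% of 22808 genes lower and limma-voom 34.1% of 12366. The count of higher genes was 1 with an adjusted p under 0.01 and 1 with at least a 1.5-fold change. These stand beside 28.8% and 23.0% of all tested genes. When 1 library was left out, the count of higher genes among the 35 ran from 1 to 2. With library size as the only scaling the median log2 fold change of all genes moved to 0.14 and that of the 35 genes to -1.13, a shift of the scale itself. Leaving out 1 library gave medians of the 35 genes from -1.39 to -1.21. With the replicate number as a block, 29 of the 35 genes were lower and 2 higher, beside 33.7% and 33.2% of all tested genes. Deviations of libraries of the same number correlated weakly (0.013 to 0.056), and 3 of 4 numbers correlated best with their own. These values do not settle whether the numbers pair libraries. No label says that they do, so the main fit did not pair them. No ratio of partner genes passed with a pseudocount of 2 (0 of 14) or with signs permuted within replicate numbers (0 of 14, smallest possible p 0.125). When 1 library was left out, only the sizes of the ratio shifts were recomputed, without a test. With the longest 3′ UTR of any coding transcript, chosen after the data were seen, 5 of the 35 genes held the miR-449a word and 5 the miR-340-5p word. Among the 35 genes, depth limits RAD54L, RAD54B and EXO1, which had 10 or fewer counts in every treated library.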

Other observations

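Of the repair genes outside the 35 that rose, 5 are given here, picked after their values were seen. RAD52, which anneals single strands, measured 3.35, 4.14, 5.84 and 5.53 CPM in vehicle and 10.5, 9.72, 8.26 and 11.3 CPM in treated libraries (2.05-fold higher, log2 fold change 1.03, SE 0.25, adjusted p = 0.000237). RECQL5, a helicase that restrains recombination, rose from 5.15 ± 1.35 to 12.4 ± 1.12 CPM (2.37-fold), and LIG4, the ligase of end joining, from 5.103 ± 1.54 to 9.71 ± 1.62 CPM (1.95-fold). In excision repair ERCC6, the transcription-coupled repair factor CSB, rose from 11.9 ± 2.01 to 28.3 ± 2.23 CPM and XPC, which finds distorted DNA, from 51.3 ± 6.15 to 89.4 ± 6.48 CPM. The libraries of the 2 groups did not overlap in any of these 5 genes.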
